A study of Mus musculus with 7 samples.

Results

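NF-kappaB target genes and inflammatory cytokines were followed in interscapular brown fat, a tissue that burns lipid to make heat, of mice with and without PGAM5, a phosphatase of mitochondria. The 10 genes were Ccl2, Ccl7, Cxcl1, Il6, Tnf, Nfkbia, Nfkbiz, Tnfaip3, Icam1 and Socs3. They were taken from the count table by symbol, and all 10 were found among its 53715 gene identifiers. Both groups were male C57BL/6J mice aged 10 weeks, either wild type (WT) or PGAM5 knockout (KO). Libraries 1 to 3 of each group were compared, values below are in that order, and KO 4 was not analysed here. The sources used here do not state how the allele was made, whether it was limited to a cell type, whether WT mice were littermates, or whether each library came from its own animal, so that p-values measure the spread between these libraries, which may be technical.

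NF-kappaB is a family of dimeric transcription factors that IkappaB proteins hold in the cytoplasm. Signals from tumour necrosis factor, interleukin-1 or Toll-like receptors activate a kinase complex that marks IkappaB for destruction, and the freed dimers enter the nucleus. Among their targets are chemokines and cytokines, adhesion molecules, and inhibitors that close the loop again. In fat, such genes are expressed by adipocytes, endothelial cells, fibroblasts and macrophages. In RNA from whole tissue, fewer cells of a type and less RNA per cell cannot be told apart.

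Promoters of the members are shown because these genes are grouped as NF-kappaB targets. RefSeq sequences (GRCm38.p6, the build called mm10) from 250 bases before to 50 bases after a start site were at hand for 8 start sites of 7 members. None was at hand for Ccl2, Ccl7 and Nfkbiz, which were therefore not searched. Both strands were searched for the kappaB motif, a pattern of 10 letters. It was found at 4 members, Cxcl1, Nfkbia, Tnfaip3 and Il6, and in 8.46% of the 32851 promoters in the table. Capitals mark the kappaB matches in the sequences of these 4 genes, each written 5′ to 3′ on the strand of the gene.
Cxcl1 (chr5:90890995-90891294, plus strand): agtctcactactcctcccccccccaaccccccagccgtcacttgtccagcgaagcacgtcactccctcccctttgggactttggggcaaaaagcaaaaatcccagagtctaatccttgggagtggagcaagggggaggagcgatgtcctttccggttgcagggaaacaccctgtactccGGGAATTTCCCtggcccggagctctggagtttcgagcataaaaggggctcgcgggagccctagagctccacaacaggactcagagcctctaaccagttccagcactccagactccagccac
Nfkbia (chr12:55492598-55492897, minus strand): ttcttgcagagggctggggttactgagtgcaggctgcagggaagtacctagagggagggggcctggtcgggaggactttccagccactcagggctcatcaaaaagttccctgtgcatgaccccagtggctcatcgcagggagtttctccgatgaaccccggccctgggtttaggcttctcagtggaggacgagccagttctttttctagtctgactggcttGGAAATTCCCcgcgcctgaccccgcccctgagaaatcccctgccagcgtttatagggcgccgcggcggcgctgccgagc
Tnfaip3 (chr10:19015361-19015660, minus strand): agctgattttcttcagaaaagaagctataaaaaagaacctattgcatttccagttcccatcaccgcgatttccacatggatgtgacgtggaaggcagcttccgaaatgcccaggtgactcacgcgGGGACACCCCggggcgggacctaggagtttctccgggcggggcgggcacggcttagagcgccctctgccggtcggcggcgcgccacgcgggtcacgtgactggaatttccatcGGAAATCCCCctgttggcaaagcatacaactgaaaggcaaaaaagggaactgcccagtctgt
Il6 (chr5:30012864-30013163, plus strand): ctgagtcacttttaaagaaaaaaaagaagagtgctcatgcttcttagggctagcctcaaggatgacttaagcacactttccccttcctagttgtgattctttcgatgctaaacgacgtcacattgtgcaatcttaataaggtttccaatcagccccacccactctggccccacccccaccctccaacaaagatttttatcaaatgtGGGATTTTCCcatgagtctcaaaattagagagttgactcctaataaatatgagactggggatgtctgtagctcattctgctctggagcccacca

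The Cxcl1 site ran from -71 to -61 relative to the start site, as 2 matches, 1 per strand, that overlap in all but 1 base. In Nfkbia the match ran from -29 to -20 and in Il6 from -44 to -35. Tnfaip3 had 2 matches, from -125 to -116 and from -12 to -3, upstream of 1 of its 2 start sites. Searches for other motifs gave TTCNNNGAA, bound by STAT factors, in Icam1 and Socs3 (8.30% of all promoters) and TGANTCA, bound by AP-1, in Il6 and Tnfaip3 (7.81%). TATAAA (13.6%) lay upstream of the start site in Tnf (-29 to -24) and Tnfaip3 (-225 to -220). It lay after the start site in Icam1 (14 to 19) and, on the opposite strand, in Nfkbia (20 to 25). These matches are letters within a window and not shown binding sites.

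Libraries held 18034204 to 33617762 counts. Genes of the mitochondrial genome took 30.3% to 43.0% of counts in WT, with the highest share in WT 2, and 19.7% to 34.1% in KO, with the lowest in KO 3. WT 2 and KO 3 also stood at the ends of the first principal component (-65.0 and 66.8, others -13.0 to 8.23). Levels are given as CPM, counts relative to library size after TMM scaling. A count of 3, about the one-sided 95% limit that a count of 0 allows, corresponded to 0.0883 to 0.200 CPM. The two-sided 95% interval of a count of 0 reaches 3.69. Such limits, and the counting intervals below, cover counting error only. Pgam5 was at 5.47 to 8.14 CPM in WT and 0.0455 to 0.538 CPM in KO. Of 12 brown adipocyte markers all were detected, with summed levels of 14860 to 18390 CPM in WT and 17060 to 19460 CPM in KO.

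The comparison asks whether these genes differ in brown fat when PGAM5 is absent. Of the 10 members, 7 passed the filter on low counts, while Cxcl1, Il6 and Tnf did not and were not tested. By the edgeR quasi-likelihood test 0 of the 7 passed a Benjamini-Hochberg adjusted p of 0.05, against 0.0595% of the 15123 genes tested, and DESeq2 and limma-voom also called 0. At an unadjusted p under 0.05 there was 1 member, Ccl7, against 11.8% of all genes (2 of 10 members in DESeq2, which tested each, and 0 in limma-voom). Log2 fold changes, KO minus WT, were below 0 for 4 of the 7, against 50.2% of all genes. Their median was -0.32, beside -0.0019 over all genes tested, moving to -0.145 when WT 2 was left out and to -0.057 when KO 3 was left out as well. For 0 of the 7 did the groups separate, against 9.39% of all genes with every KO library below every WT library and 10.1% with every KO library above.

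Ccl2 and Ccl7 encode chemokines that draw monocytes through the receptor CCR2 and lie side by side on chromosome 11. In the WT libraries Ccl2 stood at 0.566, 5.54 and 1.15 CPM, and the KO libraries gave 0.364, 1.29 and 0.391 CPM. WT 2 alone stood high, 4.30 times the next library, and the other 5 libraries of the 2 groups overlapped. Its mean was 2.42 ± 2.72 CPM for WT against 0.681 ± 0.526 CPM for KO (SD, n = 3 each). The log2 fold change was -1.76 (SE 0.85, edgeR adjusted p = 0.434, 95% interval -3.66 to 0.14). Without WT 2 it was -0.33 (SE 0.68, edgeR adjusted p = 0.901).

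WT libraries held Ccl7 at 0.848, 6.54 and 1.15 CPM, and KO libraries at 0.773, 0.987 and 0.342 CPM. The same library, WT 2, stood high, at 5.70 times the next, and the remaining WT libraries overlapped with KO. Means were 2.84 ± 3.20 CPM for WT and 0.701 ± 0.329 CPM for KO (SD, n = 3 each). This gave a log2 fold change, KO minus WT, of -1.96 (SE 0.79, edgeR adjusted p = 0.405). Its 95% interval before adjustment over genes, -3.73 to -0.20, lay below 0. Without WT 2 the log2 fold change was -0.50 (SE 0.56, edgeR adjusted p = 0.799). Ccl2 (82035571 to 82037453) and Ccl7 (82045712 to 82047525) had 182 and 205 counts in all, and a gene on the opposite strand of Ccl2, Gm17268, had 0.

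Cxcl1 (chromosome 5, 90891241 to 90893115, plus strand) encodes a chemokine that draws neutrophils through CXCR2. Its counts were 1, 67 and 4 for WT against 4, 9 and 5 for KO, or 0.0404, 4.47 and 0.118 CPM and 0.182, 0.386 and 0.244 CPM. The level of WT 2 was 11.6 times the next, KO 2, and the exact Poisson 95% intervals of their counts (51.9 to 85.1 and 4.12 to 17.1) did not meet. WT 1 and WT 3, in contrast, lay below each KO library, at counts whose intervals overlap with those of KO. The exact two-sided permutation test of log2 CPM gave p = 1, where 3 libraries against 3 cannot go below 0.1.

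**Figure D1:**
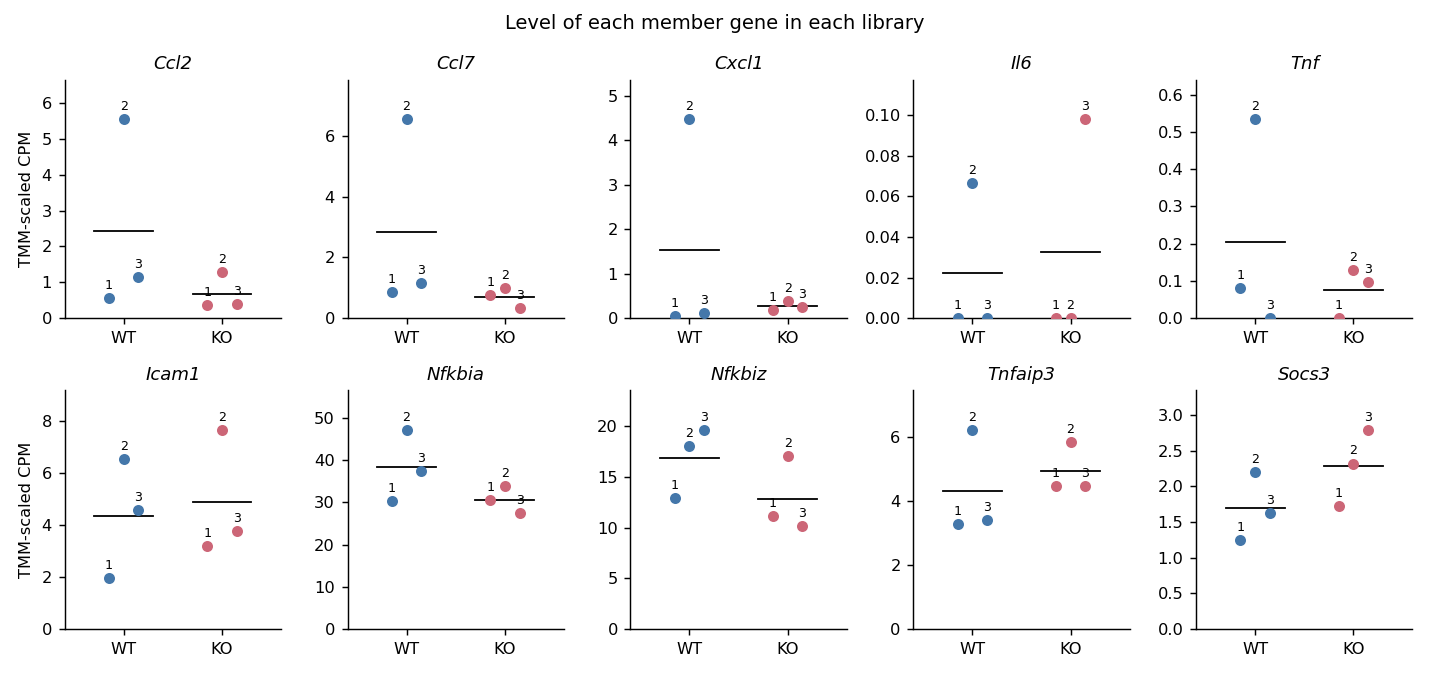
TMM-scaled CPM of each member in each library, by genotype, with the library number above each point and the group mean as a line. Each vertical axis starts at 0 and has its own range. For Ccl2, Ccl7 and Cxcl1 the point of WT 2 (5.54, 6.54 and 4.47 CPM) stands far above the other 5.

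Tnf and Il6, the genes of tumour necrosis factor and interleukin-6, were near the limit of detection. Tnf (chromosome 17, 35199381 to 35202007, minus strand) gave 2, 8 and 0 counts for WT against 0, 3 and 2 for KO, with the highest level again in WT 2 (0.534 CPM). Il6 (chromosome 5, 30013114 to 30019981, plus strand) gave 0, 1 and 0 counts for WT against 0, 0 and 2 for KO, so that each library was at or under 3 counts. The groups overlapped for both genes (exact two-sided permutation p = 0.9 for Tnf and 1 for Il6), and a difference between genotypes was not detectable at this depth.

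Icam1 (chromosome 9, 21015985 to 21028817, plus strand) encodes the adhesion molecule of endothelium and other cells that leukocytes bind through the integrin LFA-1. Levels were 1.94, 6.54 and 4.56 CPM for WT against 3.18, 7.64 and 3.76 CPM for KO. WT 1 was lowest and KO 2 highest, and the groups overlapped across most of their range. The log2 fold change was 0.18 (SE 0.47, edgeR adjusted p = 0.883, 95% interval -0.87 to 1.23), and it turned to -0.18 without WT 1 and to -0.31 without KO 2. Gm47079, which overlaps Icam1 on the opposite strand, had 0 counts.

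The regulators Nfkbia, Nfkbiz and Tnfaip3 varied far less than the chemokines. Nfkbia (chromosome 12, 55489410 to 55492647, minus strand) encodes IkappaB-alpha, which returns NF-kappaB to the cytoplasm. It was at 30.3, 47.1 and 37.5 CPM in WT and 30.7, 33.8 and 27.4 CPM in KO, so that WT 2 and WT 3 lay above each KO library and WT 1 among them. The means of 38.3 ± 8.45 and 30.6 ± 3.21 CPM (SD, n = 3 each) differed by a log2 fold change equal to -0.32 (SE 0.19, edgeR adjusted p = 0.506, 95% interval -0.75 to 0.11). Without WT 2 it was -0.145 (SE 0.17, edgeR adjusted p = 0.818).

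Nfkbiz (chromosome 16, 55811375 to 55838899, minus strand) encodes IkappaB-zeta, a nuclear member of the family that helps NF-kappaB switch on a later set of genes. Its levels were 12.9, 18.1 and 19.6 CPM in WT and 11.1, 17.1 and 10.2 CPM in KO. WT 2, WT 3 and KO 2 were the higher libraries and WT 1, KO 1 and KO 3 the lower. The log2 fold change was -0.40 (SE 0.25, edgeR adjusted p = 0.518, 95% interval -0.96 to 0.17), and it ran from -0.67 without KO 2 to -0.25 without KO 3.

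Tnfaip3 (chromosome 10, 19000910 to 19015657, minus strand) encodes A20, an enzyme that edits ubiquitin chains and shuts off signalling upstream of the kinase complex. It stood at 3.27, 6.20 and 3.41 CPM in WT and 4.46, 5.84 and 4.45 CPM in KO, so that WT 2 was above each KO library and the other WT libraries below. The log2 fold change was 0.21 (SE 0.32, edgeR adjusted p = 0.787, 95% interval -0.50 to 0.92). It was 0.56 without WT 2 (SE 0.28, edgeR adjusted p = 0.626), 0.049 without WT 1, and 0.065 without either WT 3 or KO 2.

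Socs3 (chromosome 11, 117966079 to 117970047, minus strand) encodes a feedback inhibitor of interleukin-6 family receptors and is induced through STAT3. Its levels were 1.25, 2.201 and 1.62 CPM for WT against 1.73, 2.32 and 2.79 CPM for KO. The groups overlapped through WT 2. The log2 fold change was 0.44 (SE 0.37, edgeR adjusted p = 0.613, 95% interval -0.39 to 1.27) and it was 0.27 without WT 1.

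**Figure D2:**
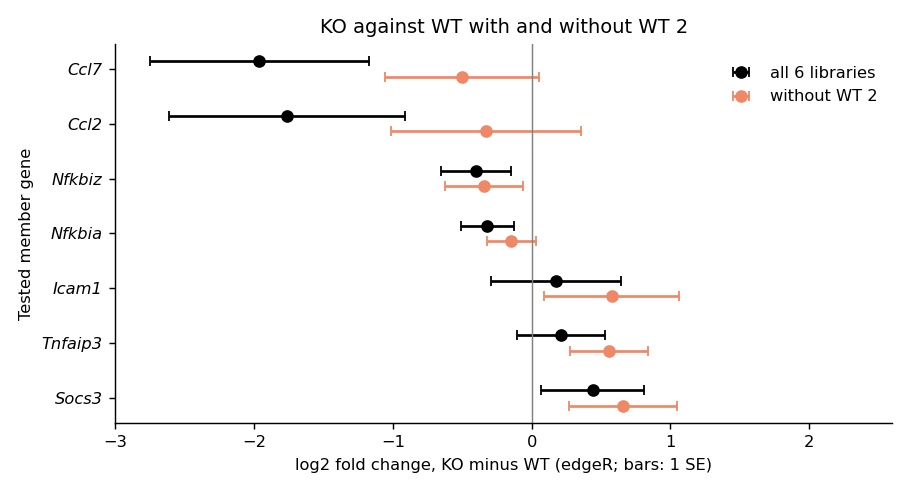
Log2 fold changes, KO minus WT, of the 7 tested members by edgeR with all 6 libraries (black) and without WT 2 (orange), with bars of 1 SE. Ccl7 and Ccl2 move from -1.96 and -1.76 to -0.50 and -0.33, while Nfkbiz, at -0.40, moves little.

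Per kilobase of exon (annotation of GENCODE release M 21), Nfkbia had the highest level, with a mean of 21.4 CPM per kb over the 6 libraries and a range of 17.0 to 29.3. It stood apart from Nfkbiz, the next, at 2.95 CPM per kb (2.03 to 3.91). Below these came Ccl7 (2.21 CPM per kb), Ccl2 (1.36), Icam1 (1.06), Socs3 (0.686), Tnfaip3 (0.637), Cxcl1 (0.484), Tnf (0.0855) and Il6 (0.0113), and from Nfkbiz down the ranges of neighbours in this order overlapped. The coefficient of variation of the CPM over the 6 libraries was 20.6% for Nfkbia, 26.6% for Nfkbiz, 26.3% for Tnfaip3, 27.9% for Socs3 and 46.4% for Icam1. For the chemokines it was 129% for Ccl2, 133% for Ccl7 and 193% for Cxcl1.

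Of all 10 members 6 were highest in WT 2, while Nfkbiz was highest in WT 3, Icam1 in KO 2, and Socs3 and Il6 in KO 3. Among the 7 tested, 4 were highest in WT 2, against 27.2% of all genes tested. A level in WT 2 over 4 times that of any other library was seen for Ccl2 and Ccl7, 2 of the 7, against 0.145% of all genes tested (22 genes). The factor of 4 was chosen after these values were seen. The mean of the 7 centred log2 CPM profiles was -0.50, 0.996 and 0.05 for WT against -0.39, 0.28 and -0.44 for KO, so that the WT libraries spread more widely than the genotypes differed.

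**Figure D3:**
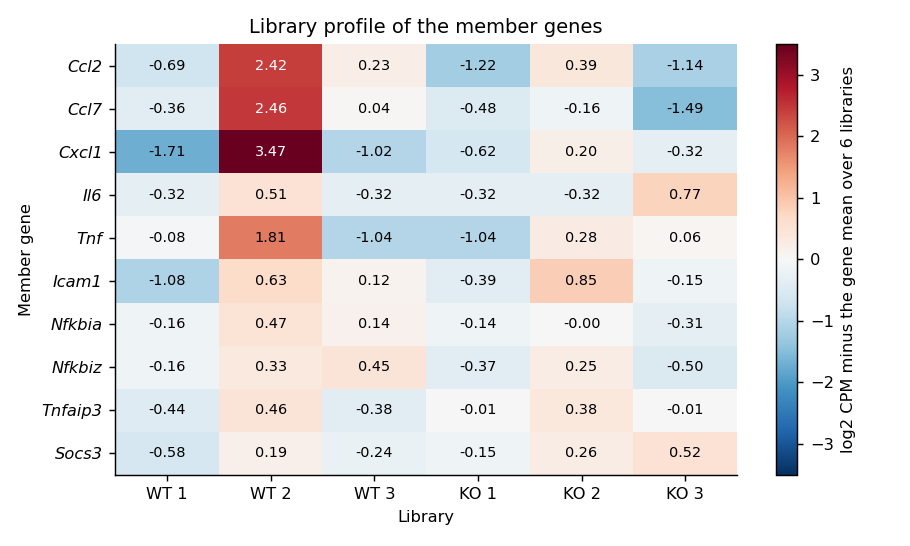
Log2 CPM (prior count 2) of each member in each library after subtraction of the gene's mean over the 6 libraries. The column of WT 2 holds the highest values for Cxcl1 (3.47), Ccl7 (2.46), Ccl2 (2.42) and Tnf (1.81), and values between 0.19 and 0.63 for the other 6 members.

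Markers of the leukocytes that these chemokines draw were examined beside the members. Summed levels of 14 macrophage and monocyte markers were 114, 189 and 155 CPM in WT and 169, 165 and 98.2 CPM in KO, and 2 of the 14 were highest in WT 2. Lyz2, the lysozyme gene of myeloid cells, was at 84.5 CPM in WT 2 and at 28.6 to 64.0 CPM elsewhere. Without Lyz2, a step not planned beforehand, the sums were 69.7, 104 and 106 CPM for WT against 105, 111 and 69.6 CPM for KO. WT 2 then no longer stood highest but lay beside WT 3 and KO 1, above WT 1 and KO 3. The mean centred log2 CPM of the tested macrophage markers was 0.08 in WT 2, below KO 1 (0.31) and KO 2 (0.31). Summed levels of 10 neutrophil markers were 4.00, 9.27 and 4.56 CPM in WT and 3.73, 3.18 and 1.61 CPM in KO. S100a9, which encodes a calcium-binding protein of neutrophils and monocytes, was at 4.34 CPM in WT 2 and 0.195 to 1.45 CPM elsewhere, with each KO library below each WT library (log2 -2.45, SE 0.63, edgeR adjusted p = 0.310). Csf3r, the receptor of the growth factor G-CSF, was at 2.201 CPM in WT 2 and 0.901 to 1.68 CPM elsewhere. Elane, a neutrophil granule gene, was at 1.80 CPM in WT 2 and 0.147 to 0.942 CPM elsewhere. S100a8, the other neutrophil marker tested, was at 0.667 CPM in WT 2, below WT 3 (0.853 CPM) and KO 2 (0.7725 CPM). Of the 4 neutrophil markers tested 3 were highest in WT 2 and 1 in WT 3. Their mean centred log2 CPM was 1.19 in WT 2 and -1.21 to 0.35 elsewhere. The granule genes Ngp, Camp and Mpo had 0 counts in WT 2, but only 4, 5 and 8 counts over all libraries. These 3, Ly6g, Retnlg and Mmp8 were each at 0 in at least 1 library and were not tested. The part of leukocyte content, or of the high mitochondrial share of WT 2, in the chemokine levels was not tested.

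Markers of other cell types were summed in the same way. Summed CPM of mast cell markers were 14.5 to 23.4 in WT and 30.5 to 33.3 in KO, and those of T, NK and B cells 7.60 to 12.4 and 17.5 to 21.4. In KO 3 these sums came mostly from Kit (18.96 CPM) and Hdc (6.79 CPM), and from Ighm (14.95 CPM). Mean centred log2 CPM of the tested mast cell markers was -0.696 to -0.388 in WT and 0.027 to 0.975 in KO, lowest in KO 3. For T, NK and B cells it was -0.53 to -0.063 and 0.142 to 0.362. Groups separated for 2 of 6 tested mast cell markers and 1 of 7 tested T, NK and B cell markers. Skeletal muscle markers summed to 66.2 to 118 and 60.4 to 99.4, mostly from Myl1 (56.8 to 97.5 CPM), while Myh4 ran from 0.273 to 12.1 CPM. The mean centred log2 CPM of the 7 tested muscle markers was -0.247, 0.008 and 1.874 for WT against -1.785, 1.515 and -1.364 for KO. Endothelial markers summed to 511 to 843 CPM in WT and 614 to 1133 CPM in KO and fibroblast markers to 548 to 711 and 670 to 785, with WT 2 the lowest of the 6 libraries in both. Over these 7 lists, macrophage and neutrophil markers included, 0 of the 60 genes tested passed by edgeR and 10 had an unadjusted p under 0.05.

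Responses that share targets with NF-kappaB were also examined. Of 16 immediate early genes, made within minutes of a stimulus, 5 were highest in WT 2, a share near the 27.2% of all genes tested. Atf3 and Klf6 were among them, Atf3 at 6.40 CPM against 0.637 to 2.53 CPM elsewhere and Klf6 at 76.5 CPM against 36.9 to 54.8 CPM. Jun, in contrast, was at 32.7 CPM in WT 2 and highest in KO 1 (48.8 CPM). Of 9 glucocorticoid-responsive genes 9 had log2 fold changes below 0 (median -0.60). Errfi1, a feedback inhibitor of EGF receptors, was at 58.8 CPM in WT 2, 34.4 in WT 3 and 11.3 to 16.01 CPM in the other libraries. All 12 heat shock genes were highest in WT 3 and had negative log2 fold changes (median -1.20), with Hspa1b at 118 CPM there and 1.08 to 3.84 CPM elsewhere, uncertain because its reads can be shared with the near-identical Hspa1a. Ccl2, Ccl7 and Cxcl1 were highest in WT 2, with WT 3 next for Ccl7 (1.15 CPM). Whether these responses bear on the chemokine levels was not tested. In these 3 lists 0 genes passed by edgeR, and 0, 2 and 9 genes had an unadjusted p under 0.05.

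Upstream of the members stand the pathway's own genes. The 5 NF-kappaB subunits had log2 fold changes of -0.20 to 0.20 (median 0.01), with Rela, the main activating subunit, at 27.7 to 33.2 CPM in WT and 26.3 to 36.8 CPM in KO (log2 0.05, SE 0.18). Nfkb1, the gene of p105 and p50, stood at log2 0.20 (SE 0.18) and Rel, the gene of c-Rel, at -0.20 (SE 0.38). The 4 tested relatives of Nfkbia and Nfkbiz were all positive (median 0.54). Bcl3, a nuclear IkappaB protein, was at 7.999, 8.87 and 9.51 CPM for WT against 11.3, 14.6 and 23.1 CPM for KO, without overlap (log2 0.89, SE 0.27, edgeR adjusted p = 0.348).

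Of 11 genes of the kinase complex and its activators 5 were positive and 6 negative (median -0.03). Tab1, which activates the kinase TAK1, was at 6.74 to 8.24 CPM in WT and 12.3 to 14.9 CPM in KO (log2 0.78, SE 0.20, edgeR adjusted p = 0.310), and Map3k7, the gene of TAK1 itself, stood at 0.09 (SE 0.15). Of 20 receptors and adaptors 11 were positive (median 0.14). Ltbr, the lymphotoxin beta receptor, was at 19.5 to 24.3 CPM in WT and 24.8 to 39.6 CPM in KO (log2 0.56, SE 0.20, edgeR adjusted p = 0.375), and Tnfrsf1a, the main receptor of tumour necrosis factor, at 60.8 to 98.6 and 83.8 to 89.6 CPM (log2 0.18, SE 0.20).

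Of 15 tested genes of negative feedback 5 were positive and 10 negative (median -0.12), and 6 were highest in WT 2. Zfp36, whose product destroys cytokine mRNAs, was one of these, at 33.9 CPM in WT 2 and 17.5 to 27.5 CPM elsewhere (log2 -0.45, SE 0.23, edgeR adjusted p = 0.462). Zc3h12a, which encodes the mRNA-cleaving regnase-1, was at 6.30 to 9.92 CPM in WT and 10.4 to 13.1 CPM in KO (log2 0.55, SE 0.23, edgeR adjusted p = 0.416).

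Of 38 further NF-kappaB targets 24 were tested, 12 in each direction (median 0.01), and 9 were highest in WT 2. Ccl11, the gene of the eosinophil chemokine eotaxin, was at 15.5, 34.4 and 23.1 CPM for WT against 15.5, 17.2 and 7.48 CPM for KO (log2 -0.86, SE 0.35, edgeR adjusted p = 0.413). Irf1, an interferon response factor, was at 16.7 to 17.9 CPM in WT and 20.6 to 25.3 CPM in KO (log2 0.41, SE 0.16, edgeR adjusted p = 0.408). Sod2, the mitochondrial superoxide dismutase and the list's most abundant gene, was at 514 to 627 CPM in WT and 625 to 734 CPM in KO (log2 0.20, SE 0.18). Ccl20, Cxcl5 and Csf3 had 0 counts in each library. Il1b and Cxcl2, singled out after their values were seen, were highest in WT 2 like the chemokine members, at 1.47 and 0.534 CPM against at most 0.530 and 0.182 CPM elsewhere.

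**Figure D4:**
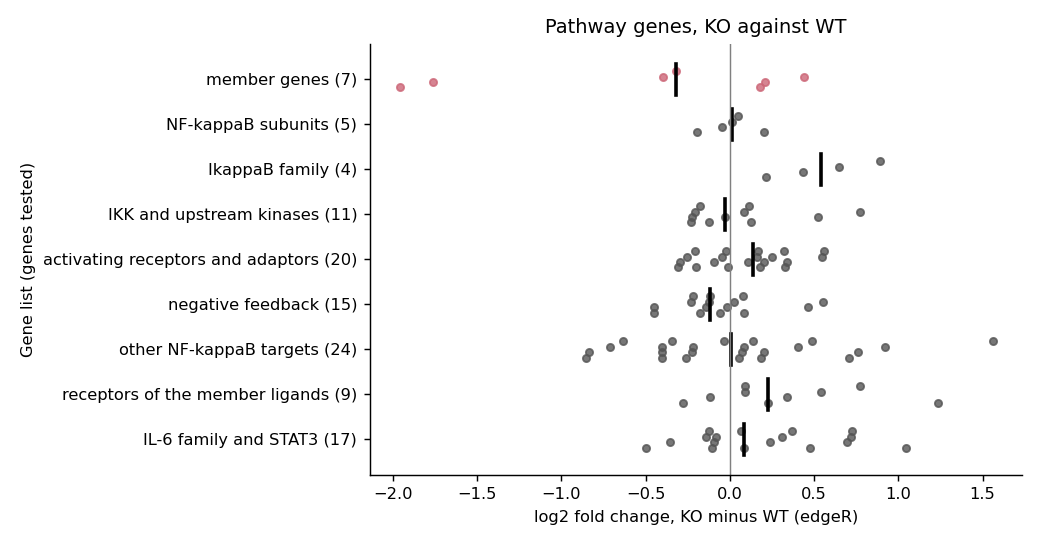
Log2 fold changes, KO minus WT, of the tested members and of the tested genes of 8 pathway lists, 1 point per gene, with the median of each list as a bar. List medians lie between -0.32 (members) and 0.54 (IkappaB family).

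Downstream of the ligands, Ccr2, the receptor of Ccl2 and Ccl7, was at 3.77 to 6.07 CPM in WT and 1.71 to 6.18 CPM in KO, and Cxcr2, the receptor of Cxcl1, was under the count filter. Of 13 receptor genes 9 were tested and 7 were positive (median 0.22). Itgal, 1 chain of the pair that binds Icam1 on leukocytes, was at 0.6003 to 1.77 CPM in WT and 1.37 to 3.91 CPM in KO (log2 1.23, SE 0.51, edgeR adjusted p = 0.413). Il6st, the shared receptor chain gp130, stood at 105 to 161 CPM in WT and 116 to 164 CPM in KO (log2 0.09, SE 0.21).

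Among 17 tested genes of the interleukin-6 family and its signalling 10 were positive (median 0.09), and 5 had an unadjusted p under 0.05. Mcl1, a survival gene, was at 89.5 to 124 CPM in WT and 71.7 to 81.9 CPM in KO (log2 -0.50, SE 0.18, edgeR adjusted p = 0.375). Across the 8 pathway lists 0 of the 105 genes tested passed by edgeR, and 12 had an unadjusted p under 0.05.

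The genes whose centred profile lay nearest to the mean profile of the 7 tested members, by root mean square difference of log2 CPM over the 6 libraries, were Ddah1 (0.11), Tpm3-rs7 (0.13), Pdlim1 (0.14), Meox1 (0.15), Serpina3n (0.16) and Gda (0.16), out of 13214 genes with a mean of at least 1 CPM. Ddah1, which encodes an enzyme that breaks down inhibitors of nitric oxide synthase, had centred values of -0.27, 1.06 and 0.01 for WT against -0.51, 0.19 and -0.48 for KO. Reads of Tpm3-rs7 can be shared with copies of Tpm3. These 6 genes were picked for likeness, and the measure is a description.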

How the data were processed

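Poly(A) RNA of brown fat was sequenced from stranded libraries, per the labels' protocols. The authors deposited raw counts per gene, made with HISAT2 2.1.0 and featureCounts 1.6.2 on mm10, per the submitters' processing notes, which also name DESeq2. The sources used here state neither the strand setting nor the annotation release. Symbols were matched without version numbers for 53620 of 53715 identifiers. Columns were matched to samples by title. KO replicate 4 was not analysed here.

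The filterByExpr rule, at a minimum count of 10 and a minimum total of 15, left 15123 genes with 99.9% of the counts. The quasi-likelihood test of edgeR 4.0.16 (R 4.3.3), with TMM scaling and genotype as its only term, compared the groups, and p-values were adjusted over all genes tested. CPM carry TMM scaling, their log2 values add a prior count of 2, and 95% intervals are the log2 fold change with its SE and the test's degrees of freedom. Single values were compared by exact permutation (SciPy 1.17.1). The scripts were tested on simulated data. Alternatives were DESeq2 1.42.0, limma-voom (limma 3.58.1), other scalings, filters and thresholds, a replicate block, quality weights and left-out libraries. Protein sequences were not used here.

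The members, lists and tests were chosen with earlier results of these data known. Each member is named, and Pgam5. Of each pathway or response list the text names genes from the 2 of highest mean CPM and the 2 of smallest p. Of cell type lists it names the 2 of highest mean CPM. Outside this rule stand Ccr2, Cxcr2, Elane, S100a8, Ngp, Camp, Mpo, Il1b, Cxcl2 and the closing section's genes, picked with their values known. Ly6g, Retnlg, Mmp8, Ccl20, Cxcl5 and Csf3 are named only for counts of 0.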

Additional observations from a re-analysis of the deposited data

How the results depend on the processing

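The count of 0 members called held with DESeq2 size factors, DESeq2, limma-voom, the stricter filter, the replicate block, quality weights, the mitochondrial genome left out, other thresholds and each library left out. With no filter 3 members were called, Ccl2 (adjusted p = 0.0280), Ccl7 (0.00520) and Cxcl1. The median total degrees of freedom were then 111496, against 9.61, so that those p-values rest little on the spread between a gene's own libraries. Over all genes 9 were called, with 168 by DESeq2, 663 with no filter, 21 with quality weights, 26 without both WT 2 and KO 3, 4 at a threshold of 0.01, and 0 (without KO 2) to 16 (without WT 2) with 1 library left out, and 1 and 5 without KO 1 and KO 3. The count without KO 2 came with 1443 genes at an unadjusted p under 0.05 in edgeR. Quality weights moved Ccl2 to -0.51, Ccl7 to -0.63 and the members' median to -0.157, and limma-voom moved Ccl2 to -1.14 and Ccl7 to -1.23. With the replicate block 5 genes were called and the members' median was -0.30. The block gave Ccl2 a log2 fold change of -1.51 with SE 0.50, against 0.85 in the main fit (edgeR adjusted p = 0.331). Ccl7 was then at -1.59 (SE 0.58, edgeR adjusted p = 0.360). Same-numbered libraries had deviations correlated at -0.11, 0.10 and 0.09, and WT 1 correlated best with KO 3 (0.23). With so few libraries these values cannot tell whether the numbers pair the samples.

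Of 105 values of single members under the alternatives, 103 kept their direction. The others were Icam1 without WT 1 (-0.18) and without KO 2 (-0.31), within a range of -0.31 to 0.58 over left-out libraries. Leaving out WT 2 moved the values of Ccl2, Ccl7, Nfkbia, Tnfaip3 and Icam1 by over 1.5 times, and other libraries moved those of Nfkbiz, Tnfaip3, Icam1 and Socs3 by as much, with no member called in any of these fits. Depth limits Il6, Tnf and Cxcl1, at 3, 15 and 90 counts in all.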

Other observations

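WT 2 was the library with the most genes standing far above all others. Of 15123 tested genes 22 were over 4 times higher there than in any other library, against 12 in KO 3, 6 in WT 3 and 0 in the other 3 libraries. Beside Ccl7 and Ccl2 these 22 held the mitochondrial genes mt-Atp8 (367 CPM against 10.5 to 25.6) and mt-Nd4l (1484 CPM against 149 to 226). Of the 22 genes 9 were processed pseudogenes (40.9%), beside 4.03% of all genes tested, and reads of such copies can be shared with their parent genes. Whether the chemokine levels and these other levels in WT 2 have a common source was not tested.

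Chemokines did not all follow WT 2. Cxcl9 was at 14.2 CPM there and 13.0 to 29.1 CPM elsewhere, Ccl5 was at 0.667 CPM there and highest in KO 1 and KO 2 (2.96 and 2.70 CPM), and Cxcl10 was highest in KO 2 (5.19 CPM). These genes were chosen after their values were seen.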
